A study of Arabidopsis thaliana with 6 samples.

Results

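Aliphatic glucosinolates are sulfur-rich defence compounds that Arabidopsis makes from methionine, and the 32 genes of their synthesis described here are a list of loci for the known steps. Of these 32 genes, 31 had a row among the 21981 genes of the expression table, and 30 reached the mean of 1 FPKM over the 6 samples that was required for a test, as did 17093 genes in all. FPKM are fragments normalised to transcript length and to the total of the sample, so levels of different genes can be compared per unit of length. AOP3 (AT4G03050) was at 0 in 5 samples and at 0.0611 FPKM in wild-type replicate 1, and AOP2 (AT4G03060) was not analysed here; the reference annotation of the Columbia accession lists AOP2 as a transcribed pseudogene.

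The tested samples were leaves of 3 transgenic lines, titled line 1 to line 3, and they were set against leaves of 3 wild-type samples, titled replicate 1 to replicate 3. Every plant was of the Col-0 accession and 4 weeks old, had started on sterile medium with sugar and was moved to soil after a week. The labels name neither the transgene nor its promoter, and they do not say whether the lines are separate insertion events or how many plants went into a sample. A drought treatment is mentioned in the same words for all 6 samples. The title of the series places the comparison in work on endoreplication and trichome branching.

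Methionine enters the pathway by losing its amino group, and its carbon chain is then lengthened in the chloroplast by a cycle that resembles, and shares ancestry with, leucine synthesis. Core enzymes turn the lengthened amino acid into an oxime, add sulfur from glutathione, cleave the conjugate, and attach glucose and sulfate. Enzymes of the side chain then set the final structure. The MYB factors MYB28, MYB29 and MYB76 activate these genes, and in leaves much of the synthesis is known to lie in and beside the vascular tissue. A parallel branch makes indole glucosinolates from tryptophan with its own MYB factors, oxime-forming enzymes and sulfotransferase, and it shares GGP1, SUR1, UGT74B1, APK1 and APK2 with the aliphatic branch.

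In the transgenic lines all 3 regulators and 7 of 9 genes of chain elongation fell, with the largest falls in MAM1 and IPMDH1, while GGP1 and the sulfate-donor gene APK2 rose. Of the 30 tested members 14 were lower and 6 higher, and 10 missed the threshold, a Benjamini-Hochberg adjusted p under 0.05 in limma over all tested genes. Of all 17093 tested genes, 15.7% were called lower, 25.0% higher and 40.7% in either direction. The members' median log2 fold change, of transgenic lines over wild type after adding 1 to each FPKM, was -0.27, against 0.03 over all tested genes. Of the members, 16 had all 3 transgenic values below all 3 wild-type values and 7 had them all above, where 22.0% and 30.2% of all tested genes did so. The labels leave unsaid whether the samples of a group are independent plants, so each p-value reflects sample-to-sample spread alone, possibly technical.

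The scaling of the samples bears on every direction in the table. Summed FPKM were 1261802 to 1278449 in the transgenic lines and 970376 to 982620 in wild type. Dividing each sample by its sum (rescaling to TPM, in which every sample has the same total) moved the median log2 fold change of all tested genes to -0.31 and left 18.6% of the calls higher, against 61.5% with the values as deposited, 48.9% after quantile normalization and 49.2% after cyclic loess. The falls of 13 members and the rises of GGP1 and APK2 stayed past the threshold in the same direction under these scalings, median-of-ratios factors and each of the other alternatives that could test them. MYB76 and the rises of SUR1, UGT74B1, SOT17 and FMO-GS-OX1 did not.

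**Figure D1:**
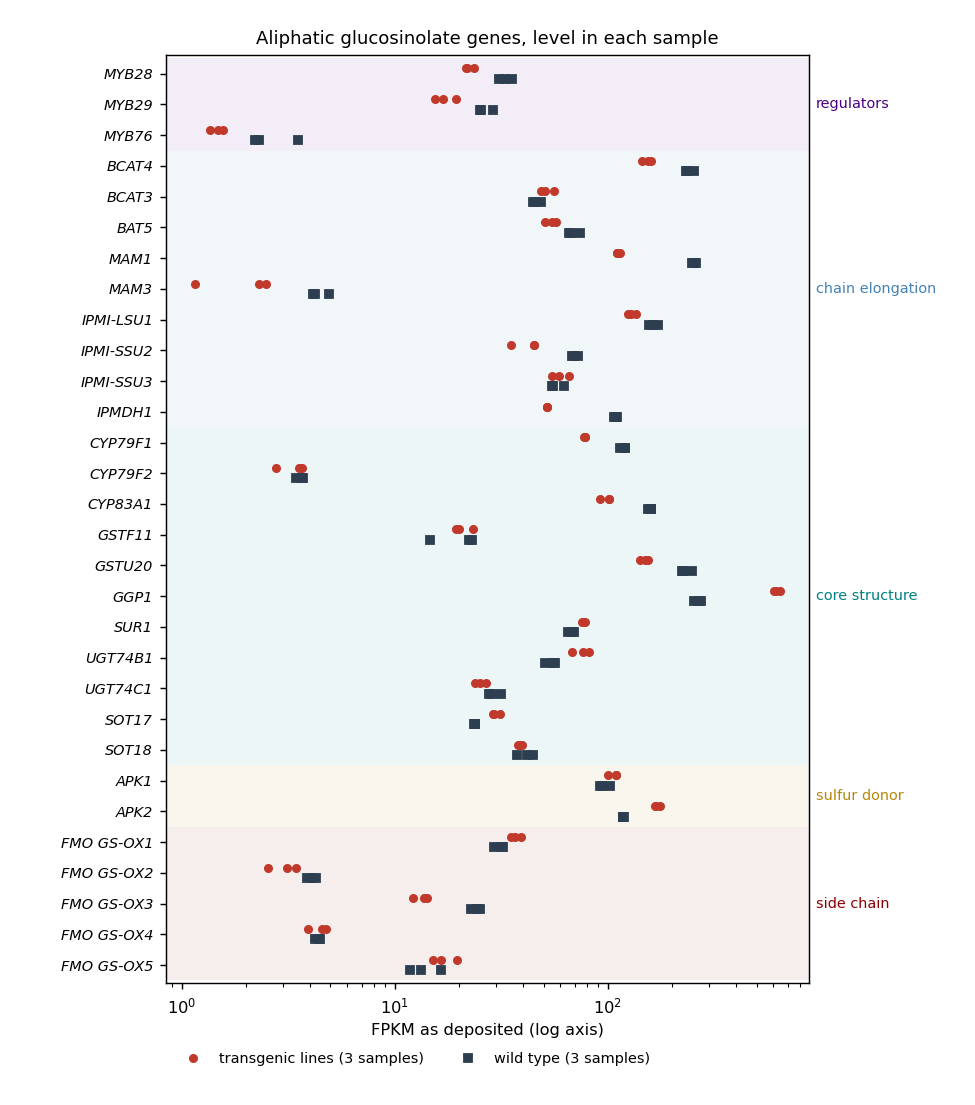
FPKM of the 30 tested pathway genes in each sample on a log axis, grouped by stage, with transgenic lines as circles and wild type as squares. GGP1 stands highest in both groups, at 606 to 644 FPKM in the transgenic lines and 253 to 276 FPKM in wild type, and the circles of MYB28, MYB29 and most genes of chain elongation lie left of their squares.

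Leaf identity was checked with markers. The 5 mesophyll genes RBCS1A, LHCB1.1, CA1, RCA and GLDP1 summed to 28850 to 29720 FPKM in the transgenic lines and 16690 to 17360 FPKM in wild type, with 5 of 5 called higher (4 of 5 after quantile normalization or cyclic loess). The 3 root markers in the table summed to at most 0.289 FPKM in the transgenic lines and 0.254 FPKM in wild type. Of the 5 tested vascular markers, 1 was higher and 2 were lower under each of the 5 scalings, with SUC2 higher and SULTR2;1 and SWEET11 lower in the values as deposited. The 6 listed summed to 188 to 201 FPKM in the transgenic lines and 176 to 184 FPKM in wild type. The 2 tested trichome markers, GL2 and MYB106, were lower, the list of 4 summing to 1.59 to 3.70 FPKM in the transgenic lines and 8.12 to 8.58 FPKM in wild type. Guard cell (3 tested), flower (3 tested) and seed (1 tested) markers had 0 calls by limma with the values as deposited, and 2 of these 7, KAT1 and SESA1, had an unadjusted p under 0.05. Under other scalings 1 guard cell marker was higher after quantile normalization or cyclic loess, and 1 was lower after rescaling to TPM. The seed marker was lower with median-of-ratios factors and after rescaling to TPM. The part of these shifts in the results was not tested, and in whole leaves fewer cells of a type and less RNA per cell cannot be told apart.

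MYB28 (AT5G61420), the main activator of the methionine branch, had 21.5, 23.5 and 21.9 FPKM in transgenic lines 1, 2 and 3, against 35.7, 30.9 and 32.8 FPKM in wild-type replicates 1, 2 and 3. MYB29 (AT5G07690), which acts beside it, had 15.5, 19.5 and 16.9 FPKM in the lines and 25.3, 28.9 and 25.1 FPKM in wild type. For both factors every line lay below every wild-type sample. The log2 fold change was -0.55 for MYB28 (SE 0.0796, limma adjusted p = 0.000496) and -0.59 for MYB29 (SE 0.1025, limma adjusted p = 0.00151). MYB76 (AT5G07700), an accessory activator with the lowest level of the 3, had 1.37, 1.48 and 1.56 FPKM in the lines and 2.21, 3.53 and 2.31 FPKM in wild type. Its log2 fold change of -0.56 passed narrowly (SE 0.19, limma adjusted p = 0.0419), and the call ended without any 1 of the 6 samples (limma adjusted p from 0.0519 to 0.165), under the replicate block (0.0616), after quantile normalization (0.133) and after cyclic loess (0.146). In the TAIR10.1 annotation MYB28 lies at chr5:24689069-24691187 on the minus strand. MYB29 and MYB76 are neighbours on chromosome 5, on the same strand and 1442 bases apart, and their coding sequences were 69.4% identical.

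Chain elongation carried the deepest falls of the pathway, with a median log2 fold change of -0.65 over its 9 genes. BCAT4 (AT3G19710), the aminotransferase that takes methionine into the cycle, had 155, 160.0 and 145 FPKM in the transgenic lines and 234, 235 and 255 FPKM in wild type (log2 fold change -0.65, SE 0.0562, limma adjusted p = 1.75e-05). BAT5 (AT4G12030), which carries the keto acids across the chloroplast envelope, had 50.7, 57.1 and 55.0 FPKM in the lines and 65.6, 74.5 and 67.0 FPKM in wild type (log2 fold change -0.34, SE 0.0718, limma adjusted p = 0.0045). Both genes were lower in every line than in any wild-type sample. BCAT3 (AT3G49680), an aminotransferase that also serves branched-chain amino acids, had 50.5, 56.3 and 48.8 FPKM in the lines against 45.5, 48.4 and 44.7 FPKM in wild type and was not called (log2 fold change 0.16, 95% interval -0.0017 to 0.32). Its value turned to -0.21 and passed the threshold after rescaling to TPM (limma adjusted p = 0.0359).

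MAM1 (AT5G23010), the synthase that condenses the keto acid with acetyl-CoA, fell furthest. The gene lies at chr5:7703041-7706973 on the plus strand and has no annotated overlap. It had 110.1, 110.9 and 114.5 FPKM in the transgenic lines and 249.5, 260.7 and 255.1 FPKM in wild type. The log2 fold change was -1.18, with an SE of 0.0445 and a limma adjusted p of 1.19e-07. MAM3 (AT5G23020), its neighbour on chromosome 5 with an additional role in the longest chains, had 2.31, 2.50 and 1.16 FPKM in the lines and 4.22, 4.92 and 4.13 FPKM in wild type (log2 fold change -0.89, SE 0.207, limma adjusted p = 0.00756). MAM1 and MAM3 thus fell together although their levels differed widely. The MAM1 to MAM3 ratio within a sample was 47.7, 44.3 and 99.1 in lines 1, 2 and 3 and 59.1, 52.9 and 61.7 in wild type, so these ranges overlapped. The 2 coding sequences were 78.9% identical over their alignment, and the sources used here do not give how reads matching both were assigned.

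The isomerase of the cycle pairs a large subunit with exchangeable small subunits. IPMI-LSU1 (AT4G13430), the large subunit that leucine synthesis also uses, had 125, 129 and 135 FPKM in the transgenic lines and 163, 172 and 156 FPKM in wild type (log2 fold change -0.33, SE 0.0552, limma adjusted p = 0.00112). The small subunit gene IPMI-SSU2 (AT2G43100) had 44.9, 35.3 and 44.9 FPKM in the lines and 72.4, 69.6 and 68.1 FPKM in wild type (log2 fold change -0.74, SE 0.0942, limma adjusted p = 0.00022). IPMI-SSU3 (AT3G58990), the other small subunit assigned to glucosinolates, had 59.3, 54.9 and 65.6 FPKM in the lines and 55.4, 62.1 and 54.8 FPKM in wild type, and its groups overlapped (log2 fold change 0.06, 95% interval -0.12 to 0.24). After rescaling to TPM its value was -0.31 (limma adjusted p = 0.00931). IPMDH1 (AT5G14200), the dehydrogenase that closes the cycle, was among the tightest measurements, with 52.2, 51.7 and 52.2 FPKM in the lines against 107, 109 and 111 FPKM in wild type (log2 fold change -1.05, SE 0.0502, limma adjusted p = 4.37e-07). It overlaps a gene on the opposite strand, AT5G14210, by 25 bases, and that gene was not called (log2 fold change -0.04).

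**Figure D2:**
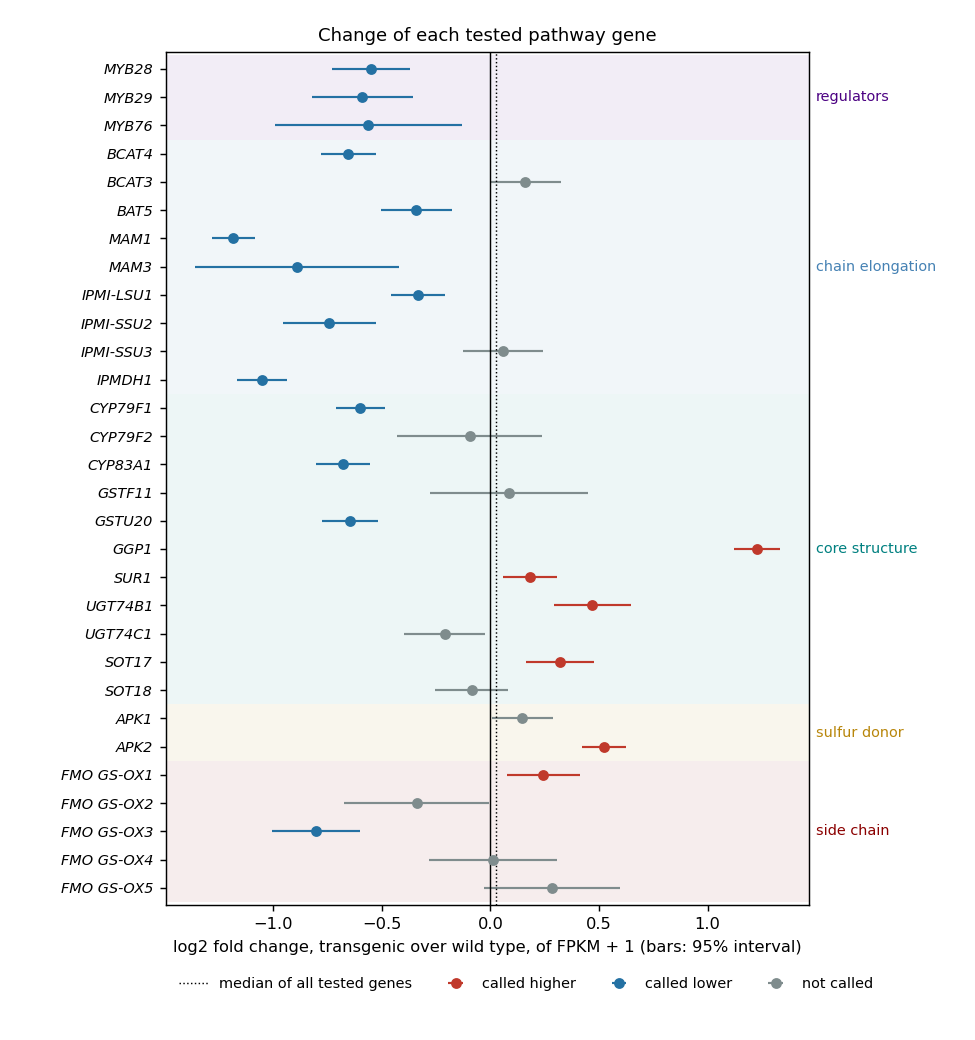
Log2 fold change of each tested pathway gene, transgenic over wild type, with its 95% interval from limma, coloured by call; the dotted line marks the median of all tested genes, 0.03. MAM1 at -1.18 and IPMDH1 at -1.05 lie furthest left and GGP1 at 1.23 furthest right.

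Of 4 tested relatives of these genes in leucine synthesis, 3 were higher and 0 lower, beside 25.0% and 15.7% of all tested genes. The 3 were IPMS1, the leucine counterpart of the MAM genes, the small subunit gene IPMI-SSU1, and the dehydrogenase gene IPMDH3. IPMS1 had 39.2, 42.9 and 39.0 FPKM in the transgenic lines and 31.9, 32.1 and 29.3 FPKM in wild type. The log2 fold changes of IPMS1, IPMI-SSU1 and IPMDH3 were 0.37, 0.34 and 0.57 (limma adjusted p = 0.0031, 0.000415 and 0.000675). Their calls ended after rescaling to TPM, with values of -0.0028, -0.04 and 0.21. That of IPMI-SSU1 also ended after quantile normalization (0.05) and cyclic loess (0.06). IPMS2, the remaining one, missed the threshold (log2 fold change 0.27, limma adjusted p = 0.0907). Ratios of genes within a sample do not depend on a factor common to that sample. Quantile normalization and cyclic loess apply no such single factor, and the ratios were not computed under them. The MAM1 to IPMS1 ratio was 2.81, 2.58 and 2.935 in the transgenic lines and 7.82, 8.11 and 8.72 in wild type. For IPMDH1 over IPMDH3 it was 1.52, 1.65 and 1.59 in the lines and 4.90, 5.56 and 4.635 in wild type. IPMI-SSU2 over IPMI-SSU1 gave 0.336, 0.2595 and 0.320 in the lines and 0.655, 0.660 and 0.635 in wild type. The groups did not overlap for any of these 3 ratios. With the pathway gene below wild type in every line and its counterpart above, no overlap was possible. IPMI-SSU1 and IPMI-SSU2 are neighbours on chromosome 2, on the same strand with 150 bases between them, and IPMDH1 and IPMDH3 share 90.5% of their aligned coding bases.

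Of the 11 tested genes of the core structure 4 were higher and 3 lower, beside 25.0% and 15.7% of all tested genes. The first step separated 2 close paralogues. CYP79F1 (AT1G16410), which turns short- and long-chain methionine derivatives into oximes, had 78.3, 78.0 and 77.3 FPKM in the transgenic lines and 121, 120 and 114 FPKM in wild type (log2 fold change -0.60, SE 0.0496, limma adjusted p = 1.4e-05). CYP79F2 (AT1G16400), which prefers the long chains, had 2.78, 3.67 and 3.55 FPKM in the lines and 3.71, 3.43 and 3.69 FPKM in wild type, with overlapping groups (log2 fold change -0.10, 95% interval -0.43 to 0.24), and was lower past the threshold after rescaling to TPM (-0.38). The CYP79F1 to CYP79F2 ratio was 28.2, 21.3 and 21.8 in the lines and 32.5, 35.1 and 31.0 in wild type, lower in each line than in any wild-type sample. Their coding sequences were 90.7% identical and they lie 1183 bases apart on chromosome 1, so reads could be split between them and the low CYP79F2 level is uncertain. CYP83A1 (AT4G13770), which oxidises the oximes, had 92.4, 102 and 101 FPKM in the lines and 159, 160 and 155 FPKM in wild type (log2 fold change -0.68, SE 0.054, limma adjusted p = 1.06e-05).

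Both glutathione transferases listed for the pathway are assigned to it mainly because their expression follows it. GSTU20 (AT1G78370) fell, with 155, 142 and 149 FPKM in the transgenic lines and 224, 227 and 250 FPKM in wild type (log2 fold change -0.65, SE 0.0577, limma adjusted p = 2.24e-05). GSTF11 (AT3G03190) had 23.3, 19.5 and 20.0 FPKM in the lines and 23.1, 14.6 and 22.3 FPKM in wild type, where replicate 2 was low, and was not called (log2 fold change 0.09, 95% interval -0.28 to 0.45).

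GGP1 (AT4G30530), the peptidase that trims the glutathione conjugate in both glucosinolate branches, had 606, 618 and 644 FPKM in the transgenic lines and 253, 267 and 276 FPKM in wild type. Its log2 fold change, 1.23 with an SE of 0.0462 and a limma adjusted p of 1.19e-07, was the largest rise of the pathway, and it was 0.84 or more under each alternative. By mean FPKM GGP1 ranked 1 of the pathway in both groups, while MAM1 ranked 6 in the transgenic lines and 2 in wild type, and APK2 ranked 2 in the lines and 7 in wild type. GGP1 lies at chr4:14920376-14922519 on the plus strand, also with no annotated overlap. GGP1 over CYP83A1, a shared step over a step of the methionine branch, was 6.55, 6.07 and 6.35 in the lines and 1.59, 1.67 and 1.775 in wild type. SUR1 (AT2G20610), the carbon-sulfur lyase that follows, had 76.7, 78.6 and 75.7 FPKM in the lines and 69.8, 65.0 and 68.4 FPKM in wild type (log2 fold change 0.18, SE 0.0547, limma adjusted p = 0.0249). That call does not carry a direction: the value was -0.06 after quantile normalization, -0.05 after cyclic loess and, past the threshold, -0.19 after rescaling to TPM (limma adjusted p = 0.015). It also ended with median-of-ratios factors (0.0595), under the replicate block (0.0514) and without line 1 (0.0582), line 2 (0.0807) or wild-type replicate 2 (0.0939).

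Glucose is added by UGT74B1 (AT1G24100), which serves both branches, and by UGT74C1, assigned to the methionine branch. UGT74B1 had 81.7, 76.4 and 68.2 FPKM in the transgenic lines and 56.7, 55.1 and 50.7 FPKM in wild type (log2 fold change 0.47, SE 0.0781, limma adjusted p = 0.00118), which fell short of the threshold once rescaled to TPM (0.09, limma adjusted p = 0.319). UGT74C1 (AT2G31790) had 27.0, 23.7 and 25.0 FPKM in the lines and 28.7, 31.7 and 27.7 FPKM in wild type. The groups of UGT74C1 did not overlap, yet it missed the threshold (log2 fold change -0.21, limma adjusted p = 0.071). It passed with median-of-ratios factors (-0.25), quantile normalization (-0.33), cyclic loess (-0.33) and TPM (-0.57). UGT74C1 overlaps AT2G31800 on the opposite strand by 40 bases, and that gene was called higher (log2 fold change 0.52).

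Sulfation by SOT17 and SOT18 completes the core of methionine-derived glucosinolates. SOT17 (AT1G18590) had 31.4, 29.1 and 29.4 FPKM in the transgenic lines and 23.6, 23.8 and 23.9 FPKM in wild type (log2 fold change 0.32, SE 0.0689, limma adjusted p = 0.00507). The SOT17 call ended after quantile normalization (0.19, limma adjusted p = 0.0504) and turned to -0.05 after rescaling to TPM (0.583). SOT18 (AT1G74090) had 38.0, 39.5 and 38.7 FPKM in the lines and 44.4, 37.7 and 41.6 FPKM in wild type, with overlapping groups (log2 fold change -0.09, 95% interval -0.25 to 0.08), and was lower past the threshold after quantile normalization (-0.25), cyclic loess (-0.26) and TPM (-0.45). The SOT18 to SOT17 ratio was 1.21, 1.36 and 1.32 in the lines and 1.88, 1.58 and 1.74 in wild type, so the balance between these paralogues, 76.5% identical in coding sequence, differed between groups without overlap.

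The sulfate they transfer comes from PAPS, the activated donor made by APS kinases. APK2 (AT4G39940) had 176, 168 and 169 FPKM in the transgenic lines and 118, 118 and 120 FPKM in wild type (log2 fold change 0.52, SE 0.0454, limma adjusted p = 1.84e-05). Its smallest value under any alternative was 0.15, after rescaling to TPM. APK1 (AT2G14750) had 100.5, 109.6 and 109 FPKM in the lines and 93.6, 92.2 and 102 FPKM in wild type, and the groups overlapped. It was not called (log2 fold change 0.15, limma adjusted p = 0.0892), passed without wild-type replicate 3 (0.19, limma adjusted p = 0.035) and was lower after rescaling to TPM (-0.23, limma adjusted p = 0.0111). Of the 5 genes shared with the indole branch 4 were higher and 0 lower with the values as deposited. Of the 25 tested members outside that set, 2 were higher and 14 lower. Among all tested genes 25.0% were higher and 15.7% lower. After rescaling to TPM 2 of the 5 shared genes were higher and 2 lower, beside 1907 and 8363 of all 17093 tested genes.

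Stretches of 250 bases before the annotated gene starts were searched on both strands for the AC element, a site type of R2R3 MYB factors written here as ACCTAAC or, in its 2 other forms, as ACCTACC and as ACCAACC, and for the G-box CACGTG, a site type of bHLH factors such as MYC2. The AC element was present in 10 of 31 members and in 6.12% of 27443 protein-coding genes, and the G-box in 3 of 31 and 6.49%. Of the 10 members with an AC element 4 were called lower, 4 higher and 2 neither, where 14 of the 30 tested members were lower and 6 higher. The 4 called higher were SUR1, UGT74B1, SOT17 and FMO-GS-OX1, whose calls did not hold under every alternative. GGP1 and APK2, whose rises held, had no AC element in their windows. The G-box was found before IPMI-LSU1, CYP83A1 and SUR1, each of which also has an AC element. A match describes these letters only. SUR1 and UGT74B1 were called higher with the values as deposited. After rescaling to TPM, SUR1 was lower past the threshold and UGT74B1 was not called. The windows of BAT5, IPMI-LSU1 and CYP83A1, which fell, are shown with those of SUR1 and UGT74B1 to let the arrangement of the motifs be compared. They are given 5′ to 3′ along each gene from RefSeq's TAIR10.1, with both motifs in capitals.
BAT5 (chr4:7210557-7210806, plus strand): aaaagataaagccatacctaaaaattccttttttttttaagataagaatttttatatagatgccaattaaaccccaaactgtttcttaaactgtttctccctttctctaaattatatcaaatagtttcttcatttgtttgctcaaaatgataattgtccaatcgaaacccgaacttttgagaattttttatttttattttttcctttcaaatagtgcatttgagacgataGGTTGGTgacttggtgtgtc
IPMI-LSU1 (chr4:7807985-7808234, minus strand): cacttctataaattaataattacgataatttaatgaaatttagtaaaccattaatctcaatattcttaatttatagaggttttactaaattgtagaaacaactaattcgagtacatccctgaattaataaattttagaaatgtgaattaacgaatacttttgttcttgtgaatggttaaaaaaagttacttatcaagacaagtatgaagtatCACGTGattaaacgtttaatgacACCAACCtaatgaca
CYP83A1 (chr4:7992430-7992679, minus strand): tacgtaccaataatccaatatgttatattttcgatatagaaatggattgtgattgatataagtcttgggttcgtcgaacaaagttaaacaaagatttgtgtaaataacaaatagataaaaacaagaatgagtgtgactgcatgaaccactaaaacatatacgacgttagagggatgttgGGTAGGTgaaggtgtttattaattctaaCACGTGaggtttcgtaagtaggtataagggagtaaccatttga
SUR1 (chr2:8880441-8880690, minus strand): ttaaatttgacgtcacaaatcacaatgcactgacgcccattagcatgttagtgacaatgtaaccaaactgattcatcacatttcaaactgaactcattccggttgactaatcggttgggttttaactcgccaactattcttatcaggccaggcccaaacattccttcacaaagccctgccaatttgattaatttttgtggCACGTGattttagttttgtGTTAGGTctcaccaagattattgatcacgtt
UGT74B1 (chr1:8527088-8527337, minus strand): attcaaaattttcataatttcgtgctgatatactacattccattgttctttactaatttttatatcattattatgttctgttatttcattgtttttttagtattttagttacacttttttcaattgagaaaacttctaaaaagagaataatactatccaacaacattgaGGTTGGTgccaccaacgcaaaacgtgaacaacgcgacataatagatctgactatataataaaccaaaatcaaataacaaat

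In these windows the G-box of IPMI-LSU1 starts 38 bases before the gene start and its AC element 15 bases before it. In CYP83A1 the order is turned, with the AC element starting 71 bases and the G-box 43 bases before the start. SUR1 has its G-box at 50 bases and its AC element at 31 bases, the same order as IPMI-LSU1, and the single AC element lies at 20 bases in BAT5 and at 81 bases in UGT74B1.

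Of the 5 tested side chain genes 1 was higher and 1 lower, near the 25.0% higher and 15.7% lower of all tested genes. FMO-GS-OX3 (AT1G62560), a flavin monooxygenase that oxidises the sulfur of the side chain, had 13.8, 14.2 and 12.2 FPKM in the transgenic lines and 22.7, 24.4 and 25.1 FPKM in wild type (log2 fold change -0.80, SE 0.0895, limma adjusted p = 9.56e-05). FMO-GS-OX1 (AT1G65860), of the same activity, had 39.1, 36.9 and 35.2 FPKM in the lines and 29.2, 32.3 and 31.9 FPKM in wild type (log2 fold change 0.24, SE 0.0735, limma adjusted p = 0.0255). These paralogues moved apart in the values as deposited: their within-sample ratio, GS-OX3 over GS-OX1, was 0.352, 0.3855 and 0.346 in the lines and 0.778, 0.755 and 0.787 in wild type. The rise of FMO-GS-OX1 by itself ended after quantile normalization (0.10), cyclic loess (0.09), median-of-ratios factors (0.21) and the replicate block (limma adjusted p = 0.0509), turned to -0.12 after rescaling to TPM, and ended without line 1 (limma adjusted p = 0.0847), line 2 (0.0604) or wild-type replicate 1 (0.0874). The coding sequences of the pair were 82.6% identical.

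The other 3 monooxygenase genes were not called. FMO-GS-OX2 (AT1G62540) had 3.46, 3.13 and 2.54 FPKM in the transgenic lines and 3.90, 4.11 and 4.26 FPKM in wild type, every line below every wild-type sample (log2 fold change -0.34, limma adjusted p = 0.0983). It passed after rescaling to TPM, at -0.62. FMO-GS-OX4 (AT1G62570) had 3.91, 4.56 and 4.77 FPKM in the lines and 4.42, 4.44 and 4.21 FPKM in wild type (log2 fold change 0.01, 95% interval -0.28 to 0.31). The genes for FMO-GS-OX2, GS-OX3 and GS-OX4 follow one another on chromosome 1 on the same strand, with 4005 and 5885 bases between them, and the middle one is the member that was called. FMO-GS-OX5 (AT1G12140), which prefers long-chain substrates, had 15.1, 19.7 and 16.4 FPKM in the lines and 16.5, 11.8 and 13.3 FPKM in wild type (log2 fold change 0.28, limma adjusted p = 0.134), and passed without wild-type replicate 1 (0.41, limma adjusted p = 0.0447). After rescaling to TPM its value was -0.07, and its locus overlaps AT1G12150 on the opposite strand by 1066 bases. The FMO-GS-OX5 locus also overlaps AT1G04927 on the opposite strand by 409 bases and AT1G04933 on the same strand by 955 bases.

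**Figure D3:**
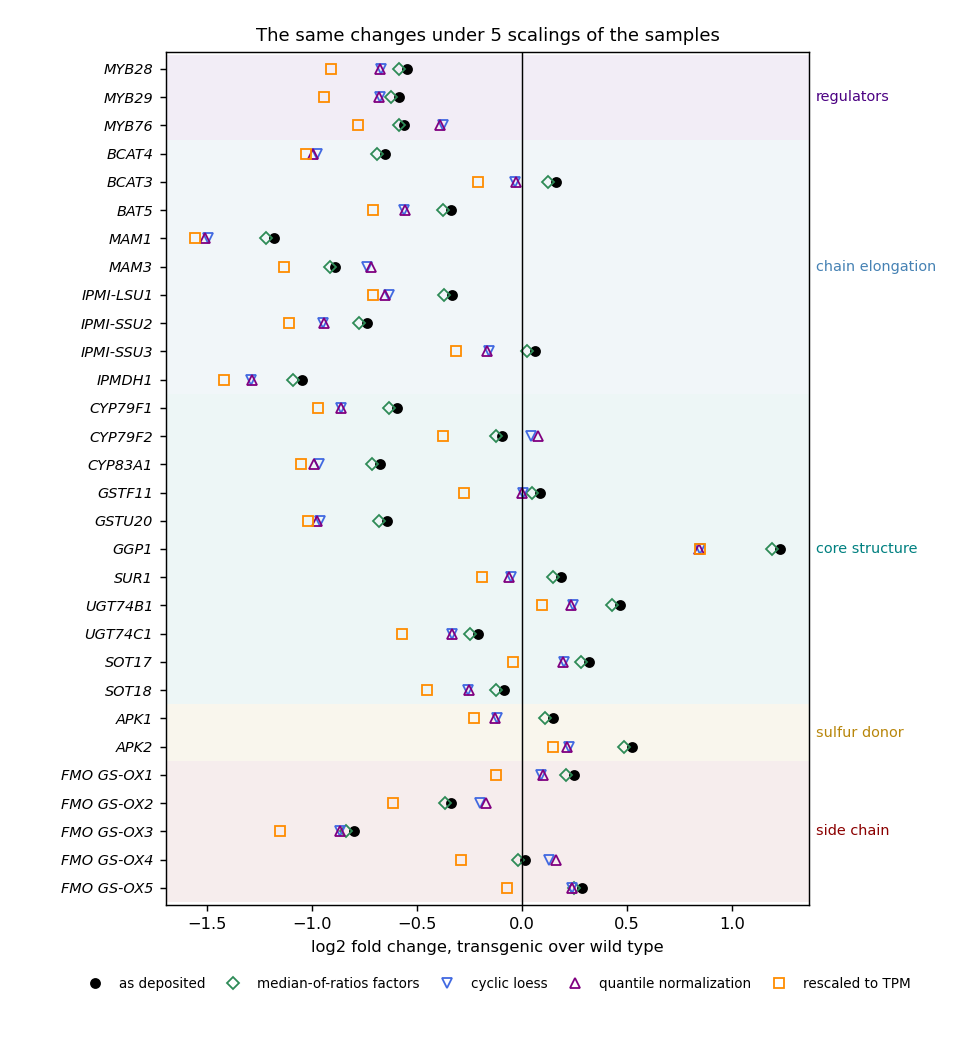
Log2 fold changes of the 30 tested pathway genes, transgenic over wild type, with the values as deposited and under 4 other scalings of the samples. MAM1 stays between -1.18 and -1.56 and GGP1 between 0.84 and 1.23, while SUR1 lies on both sides of 0.

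Of the 8 tested genes of the indole branch 7 were higher and 1 lower under all 5 scalings, with a median log2 fold change of 0.75 as deposited. Among all 17093 tested genes 25.0% were higher and 15.7% lower as deposited, and 1907 were higher and 8363 lower after rescaling to TPM. MYB51 and MYB34, the activators of that branch, had 107, 94.2 and 95.9 FPKM and 54.7, 49.6 and 52.3 FPKM in the transgenic lines, against 46.8, 48.2 and 43.4 FPKM and 22.6, 22.4 and 22.0 FPKM in wild type. MYB28 over MYB51 was 0.2015, 0.249 and 0.2285 in the lines and 0.763, 0.641 and 0.756 in wild type. Each line lay below each wild-type sample for this ratio. CYP79F1 over CYP79B2, the oxime-forming step, was 0.975, 1.07 and 1.02 in the lines and 2.37, 2.485 and 2.28 in wild type. CYP83A1 over CYP83B1, the oxime-oxidising step, was 0.1705, 0.190 and 0.188 in the lines and 0.512, 0.4975 and 0.518 in wild type. For sulfation, SOT18 over SOT16 was 0.159, 0.168 and 0.160 in the lines and 0.3085, 0.253 and 0.285 in wild type. Of the 14 within-sample ratios computed, 13 had no overlap between the groups. That outcome was fixed for pairs whose genes were already separated in opposite directions, as MYB28 and MYB51 were. SOT18 over SOT16, CYP79F1 over CYP79F2, SOT18 over SOT17 and APK2 over APK1 were not such pairs. Among all tested genes taken singly, 22.0% had all 3 transgenic values below wild type and 30.2% had them all above. No such share was computed for ratios of other genes. The 14 pairs were chosen after the values were seen, so the ratios are a description and no test is given. GSTF10, a glutathione transferase, had 546, 551 and 580.4 FPKM in the lines and 316, 294 and 317 FPKM in wild type (log2 fold change 0.85, SE 0.0465, limma adjusted p = 9.25e-07). CYP79B3, an oxime-forming enzyme like CYP79B2, was higher by 0.61 (SE 0.0851, limma adjusted p = 0.00039), and CYP83B1 by 0.79 (SE 0.0405, limma adjusted p = 6.08e-07). The 1 indole gene that was lower was GSTF9, the neighbour of GSTF10 on chromosome 2, the most abundant of the list, at 1166, 1119 and 1215 FPKM in the lines and 1305, 1313 and 1363 FPKM in wild type.

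SOT18 and SOT16 end 151 bases apart on chromosome 1 on opposite strands: SOT16 was higher by 0.70 (SE 0.0423, limma adjusted p = 1.7e-06), whereas SOT18 was not called. APK2 and CYP79B2, 3436 bases apart on chromosome 4, were both higher.

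**Figure D4:**
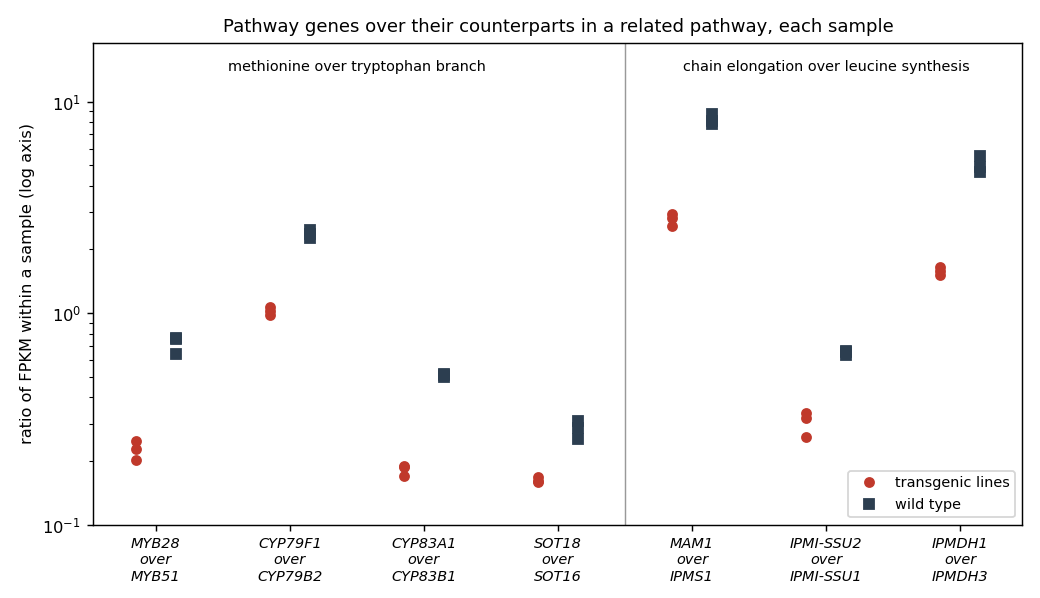
Ratio of FPKM within each sample for a pathway gene over its counterpart in the tryptophan branch (left) or in leucine synthesis (right), on a log axis, with transgenic lines as circles and wild type as squares. In each of the 7 ratios the 3 transgenic lines lie below the 3 wild-type samples, from 2.58 to 2.935 against 7.82 to 8.72 for MAM1 over IPMS1. Except for SOT18 over SOT16 this had to follow, since the genes of each pair were themselves separated in opposite directions.

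Genes that surround the pathway were taken from a list of 33, of which 29 could be tested. In the values as deposited 12 were higher and 5 lower, beside 25.0% and 15.7% of all tested genes. On the TPM scale the list had 4 higher and 14 lower, beside 1907 higher and 8363 lower among all tested genes. Whether the list differs from all tested genes was not tested. MYC2, MYC3 and MYC4 encode bHLH factors that work with MYB28 and its relatives. MYC2 had 344, 341 and 348 FPKM in the transgenic lines and 219, 217 and 215 FPKM in wild type, while MYC3 had 9.49, 9.28 and 11.1 FPKM in the lines and 18.2, 17.5 and 15.3 FPKM in wild type. MYC4 had 1.42, 2.63 and 0.869 FPKM in the lines and 4.93, 5.70 and 4.83 FPKM in wild type. The trio was therefore split, with log2 fold changes of 0.66, -0.71 and -1.27 (limma adjusted p = 1.38e-06, 0.000616 and 0.00221), a split that held under all 5 scalings. An antisense-strand gene, AT1G32630, overlaps MYC2 over 3241 bases and was itself higher, at 11.6 FPKM on average in the lines and 8.37 FPKM in wild type.

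Some genes of transport and sulfur supply rose. GTR1, a plasma-membrane importer that loads glucosinolates into the phloem, had 312, 302 and 304 FPKM in the transgenic lines and 193, 192 and 179 FPKM in wild type (log2 fold change 0.70, SE 0.0455, limma adjusted p = 2.68e-06). It stayed higher under all 5 scalings. GTR2, which works with it, was higher by 0.37 (limma adjusted p = 0.00133), a value of 0.00015 after rescaling to TPM. Of 11 genes of sulfate assimilation and PAPS turnover, 5 were higher and 0 lower with the values as deposited. Among all tested genes 25.0% were higher and 15.7% lower. ATPS3, an ATP sulfurylase at the entry to sulfate assimilation, had 70.1, 65.3 and 65.2 FPKM in the lines and 24.0, 25.6 and 23.4 FPKM in wild type, and its log2 fold change was 1.42, with an SE of 0.0667 and a limma adjusted p of 3.94e-07. SAL1, a phosphatase of the by-product of sulfation, was higher by 0.59 (SE 0.078, limma adjusted p = 0.000285). ATPS3 and SAL1 stayed higher under all 5 scalings, whereas ATPS1 (0.16 as deposited) was lower past the threshold after quantile normalization, cyclic loess and TPM.

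The remaining falls among the surrounding genes were FMO-GS-OX7, a relative of the side chain monooxygenases, with GTR3 and AOP1. FMO-GS-OX7 had 2.05, 2.31 and 2.40 FPKM in the transgenic lines and 4.58, 4.465 and 4.81 FPKM in wild type (log2 fold change -0.79, limma adjusted p = 0.00158), a call that every alternative able to test it kept. GTR3 (-0.70, limma adjusted p = 0.0459) and AOP1 (-0.78, limma adjusted p = 0.0435) passed narrowly at low levels. Both lost their calls after quantile normalization (0.142 for GTR3, 0.103 for AOP1) and with wild-type samples left out. Of the 2 glutathione synthesis genes 0 were called by limma, and 0 had an unadjusted p under 0.05.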

How the data were processed

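Expression was measured by RNA sequencing of poly(A) RNA from leaves. The authors deposited FPKM per Arabidopsis locus for each sample in 1 table; TopHat2, DESeq and the TAIR10 build are named in the submitters' processing notes, with no version or role, and the sources used here give neither the read assignment nor the FPKM denominator. No counts are used, so depth is unknown and no counting interval is given.

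The FPKM as deposited were analysed as log2(FPKM + 1) in limma 3.58.1 (R 4.3.3), for genes whose 6-sample mean reached 1 FPKM, with an intensity trend and Benjamini-Hochberg adjustment over all tested genes at 0.05, two-sided. A fold change on this scale understates that of low genes. The fit was checked on simulated data with wild-type means and spread, few changed genes in balanced directions and no scaling difference between groups. That check cannot bear on the choice of scaling. Ratios within samples are given without a test. Alternatives were 4 other scalings, a pseudocount of 0.1, no filter, a minimum mean of 5 FPKM, the title numbers as a block, and each sample left out. Every member is named, and from the other lists up to 6 called genes with the largest changes and partners of members; GTR1, GTR2, SAL1, ATPS1, KAT1 and SESA1 were named after their values were seen. Gene positions and promoters are from RefSeq's TAIR10.1, and coding sequences were aligned with Biopython 1.88. The members and lists were chosen with earlier results of these data known.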

Additional observations from a re-analysis of the deposited data

How the results depend on the processing

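The calls of MYB28, MYB29 and the 7 chain elongation genes that fell held under each alternative that tested them. MYB76 lost its call under several alternatives, and 5 members could not be tested at a minimum mean of 5 FPKM. AOP3 was tested only with no filter. Depth is unknown, so what it limits cannot be given. Why the scalings differ was not tested.

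Rescaling to TPM moved most. It gave 1907 genes higher and 8363 lower in all, 2 members higher and 22 lower, 1 and 7 of the core structure, 1 sulfur donor lower, 0 side chain genes higher and 2 lower, 2 higher and 2 lower of the genes shared with the indole branch, 0 higher of those not shared, and 4 higher and 14 lower of the other genes of the pathway. Of genes past the threshold as deposited or after rescaling to TPM, the rescaling changed the sign of BCAT3 (-0.21), IPMI-SSU3 (-0.31), SUR1 (-0.19), SOT17 (-0.046), APK1 (-0.23), FMO-GS-OX1 (-0.12), ATPS1 (-0.21), ATPS2 (-0.063), SIR (-0.29), GSH2 (-0.27), IPMI-SSU1 (-0.036), IPMS1 (-0.0028) and GS-OH (-0.26). Among members past it in neither, the sign also changed for GSTF11 (-0.28), FMO-GS-OX4 (-0.29) and FMO-GS-OX5 (-0.07). By the same criterion quantile normalization changed the sign of SUR1 (-0.064), ATPS1 (-0.19), SIR (-0.20) and GS-OH (-0.24), and cyclic loess SUR1 (-0.055), ATPS1 (-0.21) and GS-OH (-0.27).

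Quantile normalization left 3 members higher, 2 core genes higher and 5 lower, 0 side chain genes and 0 unshared members higher, and 8 other genes of the pathway lower. Cyclic loess left 5 core genes lower, 0 side chain genes higher and 1 unshared member higher. Median-of-ratios factors and the replicate block each left 0 side chain genes and 1 unshared member higher. Of the other genes of the pathway, 3 were lower with a pseudocount of 0.1 and 1 at a minimum mean of 5 FPKM. Leaving out 1 sample at a time gave 1 to 2 sulfur donors higher, 0 to 1 side chain genes higher, 1 to 2 unshared members higher and 3 to 5 other genes lower.

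The title numbers did not pair the samples: deviations of same-numbered samples correlated at -0.035, 0.049 and -0.023, and not every sample correlated best with its own number. Under the replicate block MYB76 (adjusted p = 0.0616), SUR1 (0.0514) and FMO-GS-OX1 (0.0509) missed the threshold in limma, and 4155 genes were higher and 2551 lower.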
